A study of Mus musculus with 8 samples.

Results

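The normal mouse embryo at embryonic day 9.0 (E9.0) is described here from the 4 wild-type arrays in a series of 8, the other 4 being Arid3b-null and not used. Each array held total RNA from a pool of 3 to 4 wild-type whole embryos, labelled with Cy3 and hybridised to a 1-colour Agilent whole-mouse design. The strain, the litters and the somite numbers of the embryos are not given in the labels. Where nothing says that pools came from separate litters, the spread between them may be partly technical. Of 41174 probes that are not controls, 24260 (58.9%) were well above background on all 4 arrays, and they gave 16273 of 27666 genes (58.8%). The level of a gene is the log2 signal of its brightest such probe minus the array's 75th percentile, so a level of 0 lies at that percentile. With 4 arrays each SD is itself imprecise.

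At this stage the mouse embryo has a beating heart, a closing neural tube and a tail bud that adds somites at the posterior end. Its blood consists mostly of primitive red cells made in the yolk sac, which carry embryonic globins. The yolk sac endoderm, which surrounds the embryo, secretes apolipoproteins and other plasma proteins before the liver does. Hox genes are switched on in the tail bud in the order of their paralogue numbers, so that the high-numbered ones appear last.

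Pools 1 and 2 shared a slide and pools 3 and 4 another, so the slide cannot be told apart from other differences between these pairs of pools. The arrays placed 61.0% to 64.1% of their probes well above background, and their 75th percentiles were 1703, 1339, 1679 and 1487 intensity units in pools 1 to 4. Across genes the SD of the difference between pools was 0.30 for pools 1 and 2 and 0.23 for pools 3 and 4, against 0.35 to 0.41 for pairs on different slides. Pool 2 was the pool farthest from the gene mean for 40.1% of genes. Of all 16273 genes, pool 2 was highest for 5648 and lowest for 4577, and pool 1 was highest for 2855 and lowest for 4602.

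The brightest probes belonged to the machinery of protein synthesis, energy supply and growth. Of 79 measured cytosolic ribosomal protein genes, 77 were among the brightest 10% of measured genes, a share that is 10% over all genes. Of the 20 named genes with the highest level, 12 encode ribosomal proteins. The glycolytic enzyme Aldoa had the highest level of all, 7.99, 8.38, 7.89 and 8.20 in pools 1 to 4, or 277-fold over the 75th percentile. Rps14, a protein of the small ribosomal subunit, had 7.97, 8.42, 7.88 and 8.02. All 4 pools placed both genes within 0.54 on the log2 scale. Probes differ in how strongly they bind their target, so lists are compared only by counts and medians, and no order of abundance between genes is read from these levels.

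The other housekeeping lists followed. The brightest 10% held 27 of 32 translation factors, with Eef1g at 7.27 to 7.55 and Eef1a1, the factor that brings aminoacyl-tRNA to the ribosome, at 6.63 to 7.06. It held 41 of 54 genes of oxidative phosphorylation, with the cytochrome oxidase subunit Cox6a1 at 6.92 to 7.46 and the ATP synthase subunit Atp5b at 6.83 to 7.16. Among chaperones it held 19 of 27 genes, with Hsp90ab1 at 7.09 to 7.44 and the mitochondrial chaperonin Hspd1 at 6.80 to 7.08. For histones and chromatin the count was 22 of 30, with the nucleosome-binding Hmgn1 at 7.35 to 7.69 and the histone variant H2az1 at 7.07 to 7.39. Cytoskeletal genes gave 18 of 26, with the tubulin Tubb5 at 7.34 to 7.72 and the microtubule regulator Stmn1 at 6.83 to 7.34. Glycolysis gave 15 of 23, with Gapdh at 7.14 to 7.41 and Ldha at 7.07 to 7.43. That Gapdh probe is placed on chromosome 1 (mm7), and the other Gapdh probe, on chromosome 6, read 6.65 to 6.95.

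Genes of DNA replication and mitosis were bright. Of 37 measured members, 23 were in the brightest 10%, the median level was 4.66, and the median SD was 0.09 against 0.13 in the brightest 10% of genes. The helicase subunits Mcm6 and Mcm7 had levels of 6.42 to 6.60 and 6.21 to 6.34, and the polymerase clamp Pcna had 6.07 to 6.40. Bub1, a kinase of the spindle checkpoint, had the smallest SD of the list, 0.03, with 2.81, 2.75, 2.78 and 2.81. Kif11, the mitotic motor, had the largest, 0.19. Of 37 members 0 were in the 10% of genes with the largest SD, and 0 had a highest and a lowest pool at least 2-fold apart, which 6.07% of all genes and 0.553% of the brightest 10% had, so the count does not set the list apart.

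**Figure D1:**
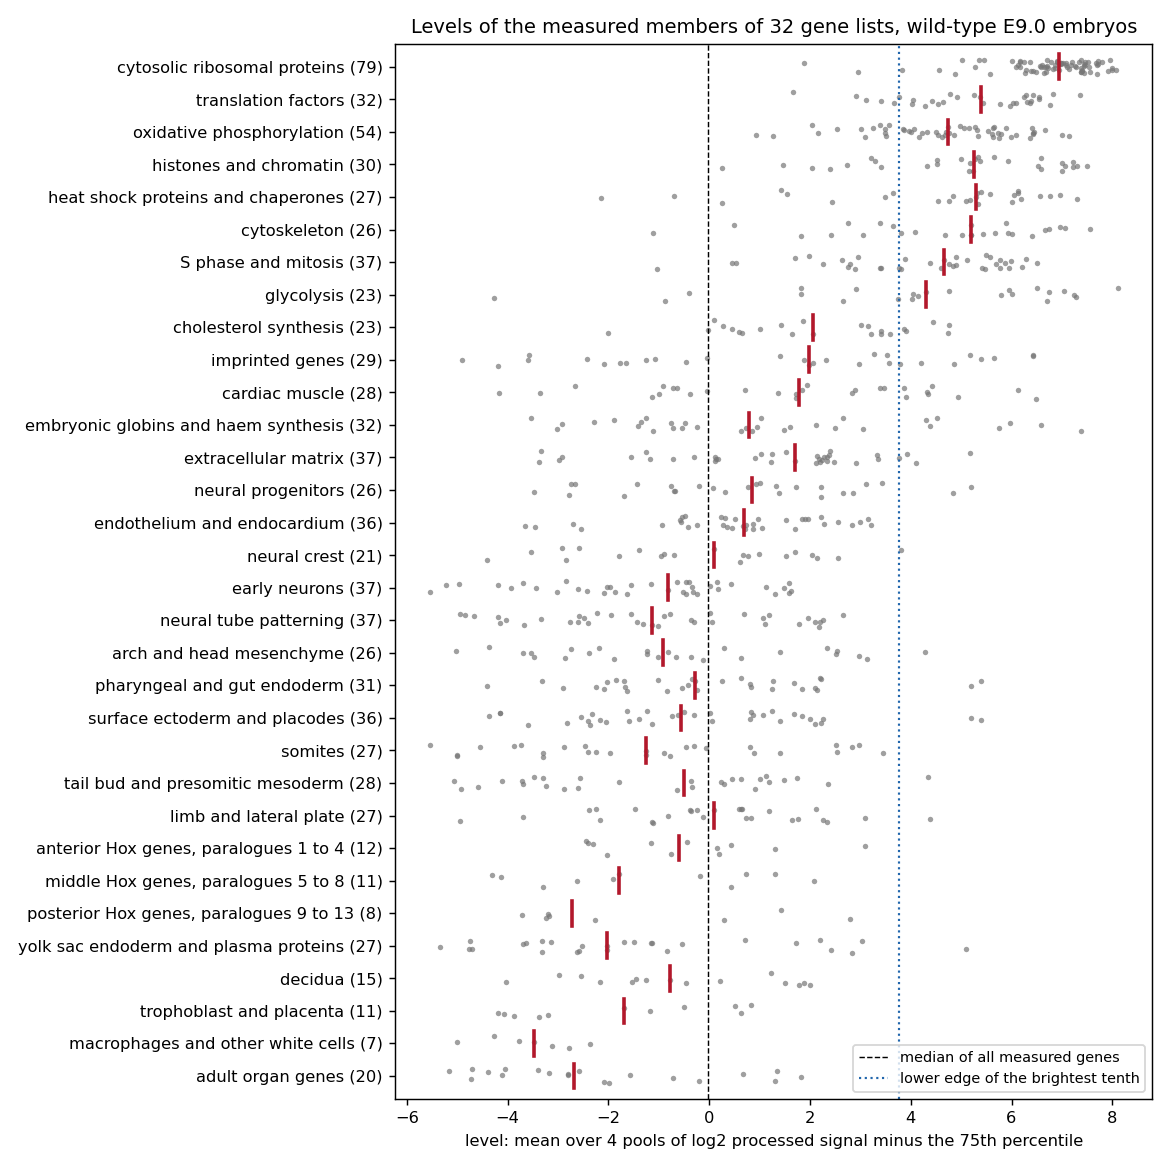
Each point is the level of a measured gene (mean of 4 pools, log2 processed signal minus the 75th percentile of its array), by gene list, with the number of measured members in brackets and a red bar at the list's median. The dashed line marks the median of all measured genes (-0.02) and the dotted line the lower edge of the brightest 10% (3.77), which 77 of 79 ribosomal protein genes passed and 0 of 20 adult organ genes did.

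Among the lists of differentiated tissues, those of the heart and the blood had the most members in the brightest 10%. Of 28 measured genes of cardiac muscle, 8 were in the brightest 10%. The myosin heavy chain Myh7 had levels of 6.60, 6.22, 6.63 and 6.52 in pools 1 to 4, and the atrial light chain Myl7 had 6.08, 6.25, 6.02 and 6.16. The cardiac actin Actc1 varied least, with an SD of 0.05 around 4.35. The giant sarcomeric protein gene Ttn varied most, with -0.74, -1.75, -0.63 and -0.86, a 2.17-fold range with pool 2 lowest, also under the 5 other scalings tried. Ttn was the 1 member with a 2-fold range, and without pool 2 there were 0. Transcription factors of the heart were dimmer, with a median of 0.05 over 19 measured genes and 0 in the brightest 10%, among them Tbx3, whose SD was 0.02.

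The blood list had 7 of 32 measured members in the brightest 10%, the embryonic globins among them. Their promoters are shown because the globin genes carry the red cell programme. The 250 bases before the RefSeq start site (GRCm38.p6) are given 5′ to 3′ along the gene, for Hbb-y on the minus strand at chr7:103853208-103853457 and for Hba-x on the plus strand at chr11:32276350-32276599. Capitals mark GATAA, the core recognised by GATA factors, and CCACCC, the core of the CACCC box, on either strand. These letters were chosen with the sequences in view.
Hbb-y: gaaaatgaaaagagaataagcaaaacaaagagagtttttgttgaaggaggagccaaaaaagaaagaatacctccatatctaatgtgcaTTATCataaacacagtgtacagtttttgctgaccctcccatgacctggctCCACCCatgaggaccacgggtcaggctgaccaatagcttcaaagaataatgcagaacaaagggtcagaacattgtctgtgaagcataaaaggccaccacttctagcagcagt
Hba-x: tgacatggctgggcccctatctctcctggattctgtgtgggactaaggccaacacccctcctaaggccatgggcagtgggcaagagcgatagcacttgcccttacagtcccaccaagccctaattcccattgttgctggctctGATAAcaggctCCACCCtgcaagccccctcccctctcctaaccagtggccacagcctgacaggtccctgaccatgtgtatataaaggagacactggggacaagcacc
Each of these promoters held 1 match to each motif, and the motifs do not overlap. Of all 32851 promoters of this length 22.6% held GATAA and 28.1% held CCACCC. Among the blood genes, 21 of 32 had a promoter in the table, and 13 and 11 of those 21 held the respective motif.

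The beta-like embryonic globin Hbb-bh1 had levels of 7.37, 7.79, 7.05 and 7.30 in pools 1 to 4, and its other probe gave 7.25, 7.61, 7.04 and 7.29. The alpha-like embryonic globin Hba-x had 6.77, 6.95, 6.25 and 6.39. Hba-a1, the alpha globin also used in the adult, had 6.05, 6.36, 5.72 and 5.75, and the embryonic Hbb-y had 5.71, 6.04, 5.58 and 5.65. Of these 4 globins 4 were highest in pool 2, as were 5648 of all 16273 genes. Hbb-bh1 stayed highest in pool 2 under the 5 other scalings, whereas Hba-x was highest in pool 1 with quantile normalization, without any shift between arrays and in the deposited value table, and Hba-a1 and Hbb-y were highest in pool 1 without a shift, Hbb-y being highest in pool 3 in the deposited value table. None of the 4 reached a 2-fold range, and Hba-x had the largest SD of the list, 0.32. Of the list's 32 genes 0 did so. Alas2, the erythroid enzyme that starts haem synthesis, had 1.71, 1.85, 1.49 and 1.38. The transferrin receptor gene Tfrc had the smallest SD of the list, 0.04, with 1.05, 0.96, 1.01 and 1.05.

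Imprinted growth genes were also bright. Of 29 measured imprinted genes 8 were in the brightest 10%. The growth factor Igf2 had 6.39, 6.54, 6.36 and 6.40 and the paternally expressed Mest had 6.27, 6.50, 6.36 and 6.62. Grb10, an adaptor that restrains growth, had 5.59, 5.65, 5.68 and 5.65, the non-coding RNA H19 had 5.29 to 5.55, and the Delta-like protein gene Dlk1 had 5.04 to 5.25. Their pools lay within 0.35 of one another. Kcnq1ot1, a long non-coding RNA that silences its neighbours on the paternal chromosome, stood apart with -1.60, -2.85, -1.24 and -1.39, a 3.05-fold range with pool 2 lowest, also under the 5 other scalings. Without pool 2 the list had 0 members with a 2-fold range.

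Patterning genes of the embryo had middle to low levels. Of 26 genes of neural progenitors the intermediate filament genes Vim (5.11 to 5.26) and Nes (3.35 to 3.50) and the Notch target Hes5 (4.72 to 5.09) were brightest. Of 37 genes that pattern the neural tube 0 were in the brightest 10%, and the median level was -1.13, with the forebrain regulator Lhx2 at 2.52 to 2.72. Among early neuronal genes, with a median of -0.82, Rtn1 had an SD of 0.02 around 1.63. Neural crest genes had a median of 0.10, led by the retinoic acid binding protein gene Crabp1 at 3.62 to 4.04. In the lists of surface ectoderm and of gut endoderm the keratins Krt18 (5.26 to 5.56) and Krt8 (5.05 to 5.49) were the members in the brightest 10%. Of 36 endothelial genes 0 reached a 2-fold range, near the 0.737% to 1.04% of all genes at their level, and the progenitor antigen gene Cd34 had 2.98, 3.02, 2.96 and 2.97.

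Few signalling genes had a 2-fold range, which 1.04% to 3.26% of all genes at the levels of these lists had too. Of 32 measured Wnt genes 0 had a 2-fold range, and the secreted inhibitor Sfrp1 had 3.57, 3.58, 3.56 and 3.56, an SD of 0.01. The hedgehog transducer Smo (5.29 to 5.55) and the FGF feedback phosphatase Dusp6 (4.13 to 4.45) were in the brightest 10%. Of 20 Notch and 17 hedgehog genes 0 had a 2-fold range, while 1 of 22 FGF genes and 1 of 28 BMP genes did. These were the FGF inhibitor Spry4, with -3.93, -4.16, -2.81 and -2.97, and the activin subunit gene Inhbb, with -5.52, -5.59, -3.85 and -4.15. For both, the 2 pools of slide 2 lay above the 2 of slide 1.

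Over all genes the spread between pools was small and depended on level. The median SD was 0.14, the median gene's highest pool was 1.24-fold over its lowest, and 988 genes (6.07%) reached a 2-fold range, 82 of them 4-fold and 5 of them 8-fold. Of the 8137 genes at or above the median level, 54 (0.664%) reached it. The median SD was 0.13 in the brightest 10% of genes and 0.29 in the dimmest, where 24.6% had a 2-fold range. On the 187 measured probes that are spotted 10 times, the SD between single spots of 1 array had a median of 0.055 to 0.065. The SD between pools on the same probes had a median of 0.12. It was taken on averages over the spots of a probe, so the 2 SDs are unlike measures.

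**Figure D2:**
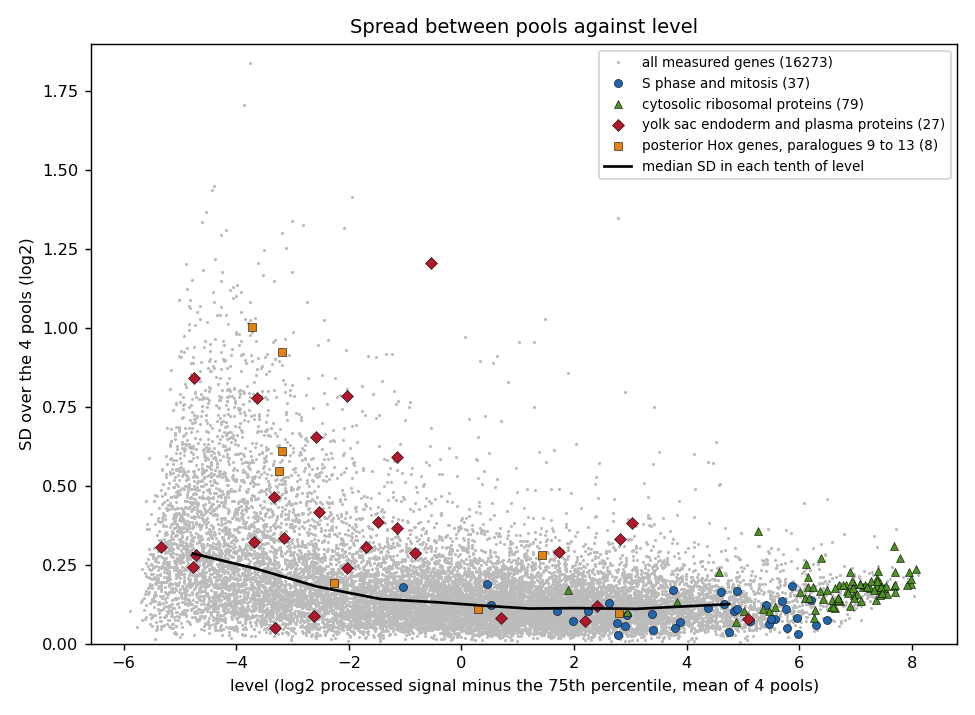
Each grey point is 1 of 16273 measured genes, with its level (mean of 4 pools) on the horizontal axis and its SD over the 4 pools on the vertical axis, both on the log2 scale. The black line gives the median SD in each 10% of genes by level, from 0.29 at the dim end to 0.13 at the bright end, and coloured symbols mark 4 gene lists, of which the yolk sac genes and the posterior Hox genes lie largely above the line.

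Part of this spread ran between the slides. With slide means removed 297 genes, in place of 988, had a 2-fold range, but this step can only lower a gene's range. With limma, 644 of 16273 genes (3.96%) differed between slide 2 and slide 1 at an adjusted p under 0.05, 621 of them (96.4%) higher on slide 2, a share that was 84.0% in the deposited value table. These were mostly dim, with 423 of 644 in the 2 dimmest groups of 10% and 39 at or above the median level. Examples from adult organs were Mup3, a major urinary protein gene, with -5.38, -5.24, -3.04 and -3.05, and the hair keratin-associated Krtap6-1, with -5.13, -4.95, -3.17 and -3.01. Slide 2 was higher by 2.27 (SE 0.10) and 1.95 (SE 0.12), each with a limma adjusted p of 0.0092 across all genes. Some regulators of development moved the same way. The neuronal repressor Scrt1 had -4.20, -3.85, -2.05 and -1.95, Sox14 had -4.50, -4.14, -2.19 and -2.53, and the neural tube gene Irx3 had -1.82, -1.77, -0.40 and -0.53. The differences were 2.02 (SE 0.15), 1.96 (SE 0.18) and 1.33 (SE 0.10), and limma's adjusted p was 0.0092 for Scrt1 and Irx3 and 0.0093 for Sox14. Without pool 3 the count was 401 and without pool 1 it was 876, fits in which 1 slide has a single pool that is assumed to vary like those of the other slide. With median scaling it was 342 and with quantile normalization 318, and 89.5% and 90.6% of the calls under those scalings were higher on slide 2. With normexp 0 genes passed in limma, 806 having an unadjusted p under 0.05. Whether pools on 1 slide also share a litter or a day was not tested.

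The genes with the largest SD were dim, 22 of the top 25 lying in the 2 dimmest groups of 10%. Rell2, a gene related to the receptor gene Relt, had the largest SD of the named genes, 1.45, with -4.39, -5.39, -2.35 and -5.46. The interferon-inducible Gbp4 had -5.31, -5.14, -2.28 and -4.97, the lysosomal regulator Tfeb had -5.35, -5.19, -2.48 and -5.10, and the matrix protease Adamts16 had -5.60, -5.48, -3.10 and -5.42. Pool 3 was highest for these 4 genes, and alone high for Gbp4, Tfeb and Adamts16, while for Rell2 pool 1 also lay above pools 2 and 4. With normexp all 4 genes were highest in pool 4. C5ar2, a complement receptor gene, was highest in pool 2 with -3.41, -1.53, -3.10 and -4.70, and in pool 4 with normexp.

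Among brighter genes the probes of a gene did not always vary together. Mrpl49, a mitochondrial ribosomal protein gene, read 3.37, 3.60, 3.36 and 0.76, a 7.18-fold range, but its other 2 probes read 2.40 to 2.58 and 1.76 to 1.95. Vapb, a protein gene of the endoplasmic reticulum, read 3.82, 4.68, 3.44 and 4.59 on its brightest probe, and -0.13 to 0.21 and -1.85 to -1.59 on the others. Pop4, a subunit gene of ribonuclease P, varied on both probes, with 2.55, 3.25, 3.55 and 4.36 on the brighter and 2.30, 2.77, 2.92 and 3.63 on the dimmer. Fibronectin, Fn1, was lowest in pool 2 on all 3 of its probes, with 2.77, 1.83, 2.57 and 2.35 on the brightest and 0.32, -0.76, 0.06 and -0.18 on the next. Of 78 genes with a 2-fold range and further measured probes, 57 had all other probes in the same direction, and 9 had another probe with a 2-fold range.

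Probes also disagreed on level. Among 5665 genes with 2 or more measured probes the median gap between the brightest and the dimmest was 2.47 on the log2 scale, or 5.53-fold. Ptprz1, a receptor phosphatase gene, was among the 20 highest genes by a probe at 7.74 to 8.15, whereas its other measured probes read -1.12 to -0.60 and -3.13 to -2.59. Lrrc58 and Pigt were in the same group by 1 bright probe each, at 7.43 to 7.96 and 7.86 to 8.17, with their other probes at or below 2.58 and -3.54. The files place both Pigt probes on chromosome 17 (mm7), another chromosome than RefSeq gives for the gene, as for 24 of 13895 genes.

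Genes of the yolk sac endoderm and of plasma proteins had more members with a 2-fold range than any other list, but not the largest share. The share was larger for posterior Hox genes (4 of 8), adult organ genes (6 of 20) and X-inactivation and Y-linked genes (1 of 1). Of 32 listed yolk sac and plasma protein genes 30 were on the array and 27 were measured. Of these, 11 were in the 10% of genes with the largest SD and 8 had a 2-fold range, where 6.07% of all genes did and 8.54% in the group of 10% by level at whose bright edge the list's median of -2.03 lies. The 8 were Apoa1, Apoa2, Apob, Apoc2, Apom, Fgg, Lgals2 and Slc2a2, and 8 of 8 were lowest in pool 1 and highest in pool 2. Their own levels ranged widely. In the groups of 10% that hold them, the share of all genes with a 2-fold range ran from 1.29% (Apoc2) to 24.6% (Slc2a2). It was 19.7% for the group of Apoa2 and Lgals2. All 8 stayed lowest in pool 1 under the 5 other scalings. With normexp 5 of the 8 (Slc2a2, Apoa2, Apob, Lgals2 and Fgg) were highest in pool 4 instead of pool 2, Apob also without a shift between arrays, and 3 stayed highest in pool 2 throughout. Pools 1 and 2 shared a slide, so removing slide means keeps the difference between them, and the count had to stay at 8. Without pool 1 it was 3 and without pool 2 it was 5. Fewer cells of a type in a pool and less RNA per cell cannot be told apart in bulk samples, and how much extraembryonic tissue each pool kept was not tested.

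The promoters of the 5 members with the largest SD are shown because these genes moved together between pools. They are the 250 bases before the RefSeq start (GRCm38.p6), along the gene, at chr7:19677942-19678191 (minus strand) for Apoc2, chr3:28697653-28697902 for Slc2a2, chr9:46228380-46228629 for Apoa1, chr1:171224804-171225053 for the downstream of 2 start sites of Apoa2 and chr12:7977427-7977676 for Apob, all on the plus strand but the first. Capitals mark CAAAGNNCA, a form of the site of the endoderm factor HNF4, on either strand, chosen with the sequences in view.
Apoc2: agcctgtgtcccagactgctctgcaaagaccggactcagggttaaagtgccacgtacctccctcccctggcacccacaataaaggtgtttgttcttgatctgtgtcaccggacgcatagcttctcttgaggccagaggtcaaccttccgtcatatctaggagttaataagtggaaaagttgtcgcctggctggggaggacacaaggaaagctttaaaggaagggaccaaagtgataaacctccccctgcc
Slc2a2: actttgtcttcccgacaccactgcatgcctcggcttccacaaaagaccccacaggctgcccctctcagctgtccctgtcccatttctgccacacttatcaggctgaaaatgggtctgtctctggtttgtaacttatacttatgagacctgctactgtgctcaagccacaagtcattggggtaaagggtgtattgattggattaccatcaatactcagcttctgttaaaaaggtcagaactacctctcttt
Apoa1: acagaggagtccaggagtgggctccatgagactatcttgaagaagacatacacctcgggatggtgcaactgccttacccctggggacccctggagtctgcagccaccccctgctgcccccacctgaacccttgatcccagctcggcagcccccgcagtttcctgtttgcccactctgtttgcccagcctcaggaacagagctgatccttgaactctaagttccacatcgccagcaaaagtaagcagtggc
Apoa2: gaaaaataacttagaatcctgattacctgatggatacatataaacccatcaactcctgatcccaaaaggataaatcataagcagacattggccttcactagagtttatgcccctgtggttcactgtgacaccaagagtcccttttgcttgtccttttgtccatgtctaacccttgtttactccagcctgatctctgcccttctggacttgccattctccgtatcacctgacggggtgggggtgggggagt
Apob: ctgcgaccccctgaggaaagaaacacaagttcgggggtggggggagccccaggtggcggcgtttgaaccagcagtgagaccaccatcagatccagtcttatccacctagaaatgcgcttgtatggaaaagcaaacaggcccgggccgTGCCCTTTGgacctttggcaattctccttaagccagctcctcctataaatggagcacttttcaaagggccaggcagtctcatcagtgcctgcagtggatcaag
Apob held 1 match to CAAAGNNCA, while the other 4 windows held none. Of all 32851 promoters of this length, 5.49% held this string. In the list 23 of 27 genes had a promoter available, with 31 promoters in all. Of these 31 promoters 5 (16.1%) held the string, and they belong to 5 of the 23 genes.

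The lipoproteins led the list. Apoc2, the activator of lipoprotein lipase, had levels of -2.11, 0.82, -0.57 and -0.29 in pools 1 to 4, a 7.62-fold range. Apoa1, the main protein of high-density lipoprotein, had -2.86, -0.98, -2.26 and -2.02, and Apoa2, its partner, had -4.68, -2.79, -3.51 and -3.57. Pools 3 and 4 lay between pools 1 and 2 for each of the 3. Apob, the scaffold of larger lipoproteins, had -3.31, -1.96, -2.96 and -2.10, and Apom had -1.95, -0.56, -1.15 and -0.91. Slc2a2, a glucose transporter of absorptive epithelia, had -5.83, -3.83, -4.89 and -4.45, a 4.02-fold range. The fetal plasma protein Afp had 2.62, 3.53, 3.09 and 2.91 and the retinol carrier Rbp4 had 2.35, 3.12, 2.90 and 2.93. The same order of pools 1 and 2 held for the fibrinogen chain gene Fgg, with -3.04, -2.01, -2.51 and -2.54, and for the gene of the endocytic receptor subunit Amn, with -1.85, -0.94, -1.63 and -1.52.

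Other members of the list were even between pools. The lipid transfer protein gene Mttp had -2.58, -2.55, -2.75 and -2.61, and the endocytic adaptor Dab2 had 0.79, 0.75, 0.68 and 0.61. The protease gene Ctsl, the brightest member, had 5.03, 5.19, 5.04 and 5.14, and the endoderm regulator Foxa2 had an SD of 0.07. The receptor gene Lrp2 ran the other way, with 1.96, 1.30, 1.86 and 1.79. In all, 21 of 27 members were lowest in pool 1 and 22 of 27 highest in pool 2. Over all 16273 genes, 4602 were lowest in pool 1 and 5648 highest in pool 2. For the list, the count highest in pool 2 was 13 without a shift and 10 with normexp, where pool 4 was highest for 15. The mean over members lay 0.42 below the mean of the pools in pool 1 and 0.35 above it in pool 2, with -0.02 in pool 3 and 0.09 in pool 4. The deviation of pool 1 was -0.61 to -0.28 over the 5 other scalings, and that of pool 2 was 0.12 to 0.49, with pool 4 higher, at 0.60, under normexp.

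**Figure D3:**
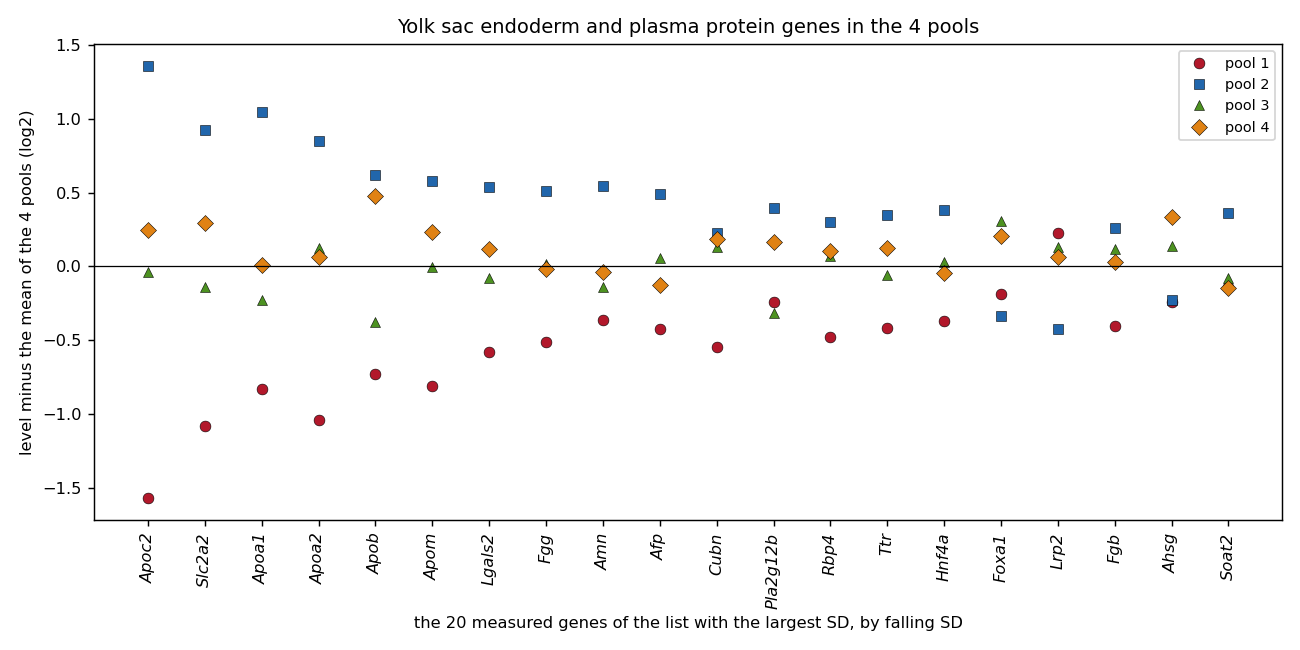
The 20 of 27 measured yolk sac endoderm and plasma protein genes with the largest SD are ordered by falling SD, and each symbol is the level in 1 pool minus the mean of the 4 pools (log2). Pool 1 is lowest and pool 2 highest for all of the 8 genes with a 2-fold range, the leftmost in the plot (5 of the 8 are highest in pool 4 with normexp), whereas for Lrp2 pool 1 is highest and pool 2 lowest (pool 4 with normexp).

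The median level of Hox genes fell with paralogue group, and the median SD was larger in the posterior group alone. All 12 anterior genes on the array (paralogues 1 to 4) and all 11 middle genes (5 to 8) were measured, against 8 of 15 posterior genes (9 to 13). Of the other 7 posterior genes, 4 were above background on no array, among them Hoxa13 and Hoxc13, and Hoxd13 was above it on 3. The median level fell from -0.60 to -1.78 and -2.72 over the 3 groups, and the median SD was 0.18, 0.18 and 0.42. Hoxb2 was the brightest anterior gene with 2.99, 3.24, 3.04 and 3.13, and Hoxb9 the brightest posterior one with 2.68, 2.88, 2.88 and 2.76.

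Genes of paralogue groups 10 and 11 were low in pool 1. Hoxc10 had -5.14, -3.67, -3.23 and -2.85 in pools 1 to 4, a 4.89-fold range. Hoxa11 had -4.25, -2.44, -3.66 and -2.38, so that pool 3 was also low. Hoxa10 had -4.08, -2.84, -3.08 and -2.75, and Hoxd10 had -3.98, -2.80, -3.31 and -2.85. All 4 measured genes of these groups were lowest in pool 1, also under the 5 other scalings, and all 4 had a 2-fold range, where 6.07% of all genes and 19.7% in the group of 10% with a median level of -3.68 did. Without pool 1 the count was 1. In contrast Hoxa9 had 0.13, 0.32, 0.35 and 0.38 and Hoxb9 an SD of 0.10. Over the 8 posterior genes the mean of pool 1 lay 0.63 below that of the pools, and the deviation was -0.72 to -0.43 under the other scalings. The corresponding deviations of pool 1 were -0.21 for the middle and -0.13 for the anterior genes, and the latter was 0.01 without a shift between arrays. Of 31 measured Hox genes 20 were lowest in pool 1 and 0 were highest there, counts that were 11 and 5 without a shift between arrays.

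**Figure D4:**
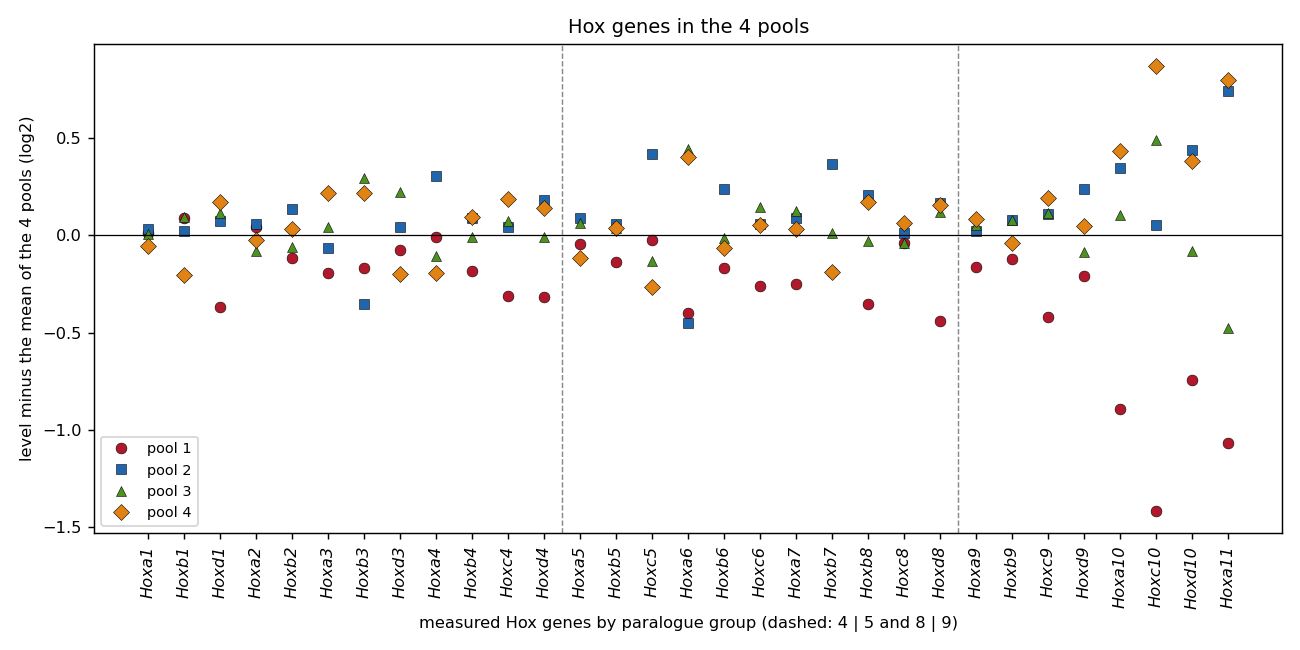
Each symbol is the level of a measured Hox gene in 1 pool minus the mean of the 4 pools (log2), with genes ordered by paralogue number and dashed lines after groups 4 and 8. Pool 1 is at most 0.44 below the mean up to group 9 and is 0.74 to 1.42 below it for the 4 genes of groups 10 and 11 on the right.

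Tail bud and presomitic mesoderm genes differed by less, and their lowest pool depended on the scaling. Of 28 measured members 16 were lowest in pool 1, as were 4602 of all 16273 genes. The list mean of pool 1 lay 0.21 below that of the pools, with -0.42 to -0.07 under the other scalings. Without a shift between arrays 6 members were lowest in pool 1 and 14 in pool 2, whose deviation of -0.17 was then below the -0.07 of pool 1. Tbx6, a regulator of presomitic mesoderm, had -0.34, 0.12, 0.59 and 0.85. The posterior homeobox gene Cdx2 had 0.00, 0.98, 0.43 and 1.13, and Msgn1, which acts beside Tbx6, had -5.91, -4.48, -4.70 and -4.61. These were the 3 members with a 2-fold range, a count that was 0 without pool 1 and 1 without pool 4. The mesoderm gene T had -3.19, -3.18, -2.67 and -2.52, with pools 1 and 2 alike. Sp8 (-0.36, -0.40, -0.39 and -0.20) and Lef1 (2.23, 2.29, 2.37 and 2.53) had SDs of 0.09 and 0.13. The somite genes Tcf15 (3.19, 3.62, 3.52 and 3.46) and Meox2 (0.86, 0.91, 0.86 and 0.89) had SDs of 0.19 and 0.02. The stage of the embryos in each pool was not tested.

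Abundant genes also differed between pools, but their order depended on the scaling. Ribosomal protein genes lay 0.16 above the mean of the pools in pool 2, a value that was -0.01 with quantile normalization, -0.05 without a shift and -0.03 in the deposited value table. Scaling on the median moved the median of all genes by 0.14 in pool 2 and -0.12 in pool 3, and no shift between arrays moved it by -0.21 in pool 2 and 0.14 in pool 1. Extracellular matrix genes lay 0.16 below in pool 2, with -0.37 to -0.02 under the other scalings. Pool 2 was the lowest for 23 of 37 members, as for 4577 of all 16273 genes. Pool 4 was lowest for more members with median scaling (15 against 12) and with normexp (21 against 11). Besides Fn1 the members lowest in pool 2 included the laminin chain gene Lamc1, with 4.24, 3.71, 4.33 and 4.16 (lowest in pool 4 with normexp). The collagen gene Col18a1 had an SD of 0.07.

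**Figure D5:**
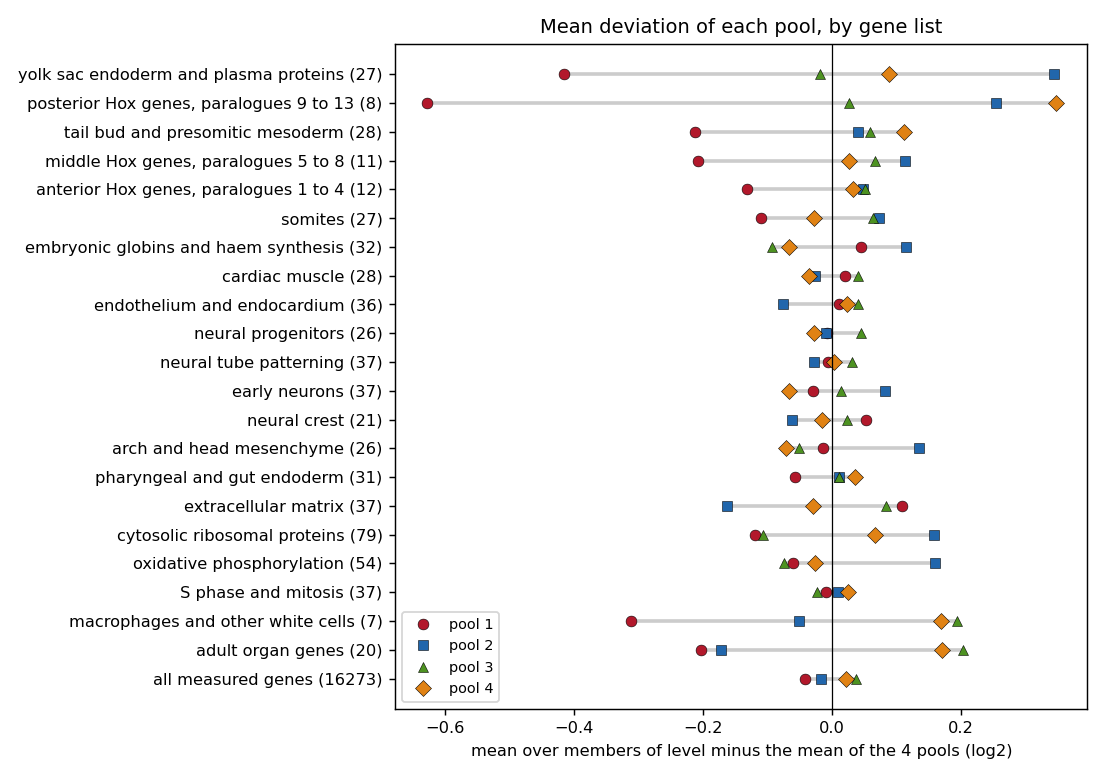
For each gene list (measured members in brackets), symbols give the mean over members of the level in 1 pool minus the mean of the 4 pools (log2), and the grey bar spans the pools. Pool 1 lies at -0.42 for yolk sac genes, -0.63 for posterior Hox genes and -0.21 for tail bud genes, whereas the pools lie within 0.05 of one another for the 37 genes of replication and mitosis, a list whose pool 4 lies at -0.32 with normexp and pool 2 at -0.20 without a shift.

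Of the X-inactivation and Y-linked genes 1, Zfy1, was well above background on all 4 arrays, and so were the 6 X-linked partners of Y-linked genes. The X-inactivation transcript Xist was well above background in pools 1, 3 and 4, with 1.63, 1.42 and 1.71, and not in pool 2. The Y-linked Eif2s3y was above it in pools 2 and 3, with 0.53 and -1.32, as were Ddx3y, with -0.72 and -2.21, and Kdm5d, with -1.20 and -2.62. Pool 3 alone was above background for Xist and also for Eif2s3y, Ddx3y and Kdm5d. The X-linked partners Eif2s3x (3.95, 3.40, 3.82 and 4.15) and Kdm5c (3.17, 2.60, 3.17 and 3.24) were lowest in pool 2, also under the 5 other scalings. All 6 measured partners were lowest in pool 2, as were 4577 of all 16273 genes. The count of partners was 2 with median scaling and 5 with normexp and in the deposited value table. The probe of the Y-linked Zfy1 was above background in all 4 pools, with -4.67, -4.88, -3.71 and -3.45. It was highest in pool 4, where Eif2s3y, Ddx3y and Kdm5d were not above background, and so did not follow them. Whether its signal comes from Zfy1 was not tested. Zfy1 was lowest in pool 2 (pool 1 with normexp) and was among the genes that limma called as differing between the slides. Whether sex composition has a part in the other differences of pool 2 was not tested.

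Markers of adult organs and white cells were mostly dim, with median levels of -2.69 and -3.48 over measured members. Those of placenta and decidua lay at -1.69 and -0.78. All of these medians but that of the white cells were within the range of the embryo's own lists, which reached down to -2.72 for posterior Hox genes. Of 50 adult organ genes on the array 20 were measured and 23 were above background on no array, with a list mean of -0.20 and -0.17 against the pools' mean in pools 1 and 2, and 0.20 and 0.17 in pools 3 and 4, pool 3 being at -0.02 with normexp. Of 20 white cell genes 7 were measured, with Lyz2 at -2.50 to -2.25 and the macrophage receptor Csf1r at -5.46 to -4.78, and the pan-leukocyte gene Ptprc was above background on 1 array. Of 18 placental genes 11 were measured, with the placental lactogens Prl3b1 at -1.54 to -0.81 and Prl3d1 at -4.20 to -3.58, while the trophoblast markers Tpbpa, Gcm1 and Synb were above background on no array. Of 17 decidual genes 15 were measured, and the decidual prolactin gene Prl8a2 was above background on 1 array. The white cell genes lay 0.31 below the mean of the pools in pool 1, and lower still in pool 2 (-0.26) than in pool 1 (-0.17) without a shift. The placental genes lay between -0.12 in pool 1, which was 0.02 without a shift, and 0.15 in pool 4.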

How the data were processed

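Total RNA of 4 wild-type pools was analysed, and the 4 null arrays were not used. Per the file headers, the deposited intensity is Feature Extraction's (9.5.3.1) processed Cy3 signal of each spot after background subtraction and detrending within the array, and the mean and local background intensity served only for normexp (offset 50). The authors also deposited a table of log2 values, 27108 probes with medians of 9.44 to 9.46 on the 4 arrays. How they were scaled and centred is unknown here, and they served as an alternative. Control and outlier spots were left out, spots of a probe were averaged as log2, and each array's 75th percentile was subtracted. A probe counted as above background if 0.5 or more of its unflagged spots did, and the brightest probe measured on all 4 arrays stood for a gene. Names came from RefSeq (GRCm38.p6), with 17012 measured probes matched by accession, 3258 by symbol and 1594 by older name, and 2396 keeping the file's name. Probe coordinates are on mm7.

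Spread is described without a test. The slide comparison used limma 3.58.1 (R 4.3.3) with Benjamini-Hochberg adjustment. Tested on simulated data for this slide comparison with 16273 genes, it recovered 53% of 2-fold and 77% of 4-fold changes with 4 false calls. False calls were not counted among unchanged genes simulated with a wide spread, and no shift shared across an array was simulated. Sensitivity settings were other scalings, filters, probe rules, normexp, limma with trend and leaving out each pool. The members and the 49 gene lists were chosen with earlier results of these data known. Genes were named as the 20 highest, the 25 with the largest SD, the 15 with the largest SD at or above the median level and, per list, up to 3 highest and the most and least variable members. Further list members, sex-linked genes and slide examples were named after their values were seen, as was the setting without slide means.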

Additional observations from a re-analysis of the deposited data

Results flagged for a closer look

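Dixon's ratio is the gap of 1 pool to the nearest other as a share of the range. Of 207 results examined (48 list means and 159 named genes), 11 exceeded its 95% limit for 4 samples. This is near the 1 in 20 groups that chance gives. Many of the genes were named for their SD over these same pools or after their values were seen, so for them the limit is no test. For list means, pool 1 stood low for the anterior Hox genes (ratio 0.904) and pool 2 stood high for the limb and lateral plate genes (0.993). Without a shift between arrays both turned, pool 1 lying at 0.01 from the mean of the pools for the former and pool 2 at -0.15 for the latter. Pool 1 stood low for Cubn (0.877), Hoxc9 (0.87) and Msgn1 (0.843). Pool 2 stood low for Kdm5c (0.894). Pool 3 stood high for Gbp4 (0.889), Tfeb (0.915) and Adamts16 (0.927), all highest in pool 4 with normexp. Pool 4 stood low for the RNA-binding protein gene Elavl4 (0.927), with 0.72, 0.83, 0.80 and -0.66, and for Mrpl49 (0.916), whose other probes did not show it. No cause was tested.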

How the results depend on the processing

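With 4 pools, dim genes limit what can be said, since most genes with a 2-fold range lie in the 2 dimmest groups of 10%. The number of genes with a 2-fold range across the wild-type pools (988) was 5136 with normexp, 298 in the deposited value table, 1990 with genes above background on at least 2 arrays, 5537 with no filter on dim probes (27620 genes), 54 among genes at or above the median level and 297 with slide means removed, a setting chosen after seeing the data. Removing slide means can only lower a gene's range. The count was 727 to 827 with 1 pool left out. The median SD (0.14) was 0.28 with normexp. The genes differing between slides (644) numbered 342 with median scaling, 318 with quantile normalization, 387 with no filter and 0 with normexp, and 401 to 876 with 1 pool left out. The deviation of pool 2 for ribosomal proteins (0.16) was 0.30 with median scaling, -0.0087 with quantile normalization, -0.0471 without a shift and -0.0316 in the value table. For the extracellular matrix it was -0.0222 with median scaling and -0.37 without a shift. For tail bud genes pool 1 lay at -0.42 with normexp. Of 27 yolk sac genes 19 had a 2-fold range with normexp, and 3 to 8 with 1 pool left out. The cause of these changes was not tested. No paired analysis was possible because the arrays that share replicate numbers with these pools belong to the null group, which was not used.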
